A study of Mus musculus with 8 samples.

Results

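Peaks of WFS1, a transmembrane protein of the endoplasmic reticulum that also reaches the inner nuclear membrane, were examined around 8 genes of extracellular matrix turnover, namely the matrix metalloproteinases Mmp2, Mmp3, Mmp9, Mmp10, Mmp13 and Mmp14 and the inhibitors Timp2 and Timp3. WFS1 chromatin immunoprecipitation with sequencing (ChIP-seq) was performed in proliferating wildtype C2C12 cells, an established line of mouse myoblasts, after crosslinking with DSG and formaldehyde. The analysis used 2 peak lists, from chromatin sonicated for 30 cycles and from a part of the same immunoprecipitate sonicated for 6 further cycles, to 36 in all. The other 6 of the 8 libraries, which are the inputs and the libraries from WFS1 knockout cells expressing WFS1-FlagTag, were not used here. With 1 library per condition from 1 immunoprecipitation, the lists are not replicates, no test between them was possible, and every comparison describes these libraries only. The 30-cycle list held 18283 peaks, the 36-cycle list 12674, and joining all peaks that touched gave 22292 combined peaks on the GRCm38 genome, 5 of them on the mitochondrial genome. The lists give the position of each peak without a height or read count, so the depth behind a peak is unknown. Members were all combined peaks in one of the 8 genes or within 100 kb of its ends, together with any peak in the Mmp gene cluster of chromosome 9, which gave 40 peaks of the 22292. The lists measure where WFS1 chromatin was recovered and not expression, so neither the myoblast identity of the cells nor the RNA of the 8 genes could be checked against them.

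Matrix metalloproteinases are zinc-dependent proteases that are made as inactive proenzymes and cut collagens, laminins and other matrix proteins after a propeptide is removed. Mmp14 is anchored in the plasma membrane and activates pro-Mmp2 at the cell surface in a complex that contains Timp2, so that Timp2 is both an inhibitor and a part of the activation step. In skeletal muscle, these enzymes remodel the basement membrane around fibres and the paths along which myoblasts migrate. Several of the genes, among them the collagenase gene Mmp13 and the stromelysin genes Mmp3 and Mmp10, carry in their promoters a site for AP-1, the dimer of Fos and Jun proteins. The letters TGACTCA, or TGAGTCA on the other strand, are the core of that site and are called an AP-1 site in the following, which says nothing of whether AP-1 was bound.

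The promoters of the 3 chromosome 9 members are shown because each holds an AP-1 site close to its start, while none of the genes had a WFS1 peak near it. The 100 bases before the RefSeq start site of each (GRCm38.p6) are printed from 5′ to 3′ with the AP-1 site in capitals.
Mmp13, chr9:7272414-7272513, strand +: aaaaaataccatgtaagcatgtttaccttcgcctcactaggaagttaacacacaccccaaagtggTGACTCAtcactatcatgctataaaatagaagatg
Mmp3, chr9:7445722-7445821, strand +: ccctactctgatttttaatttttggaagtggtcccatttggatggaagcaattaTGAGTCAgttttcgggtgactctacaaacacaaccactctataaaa
Mmp10, chr9:7502242-7502341, strand +: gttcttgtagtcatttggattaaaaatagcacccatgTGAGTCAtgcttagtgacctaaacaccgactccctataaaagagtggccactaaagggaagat

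The first base of the site lay at position −35 in Mmp13, −46 in Mmp3 and −63 in Mmp10, counted back from the base before the start site as −1. The start sites of Timp2 and Mmp14 are shown next because each was at or beside a WFS1 peak, without an AP-1 site in the peak. The Mmp14 stretch is the last 125 bases of a peak that ended just before the start, and the Timp2 stretch is the 200 bases of a peak that lie directly before the annotated start site.
Mmp14, chr14:54431412-54431536, strand +: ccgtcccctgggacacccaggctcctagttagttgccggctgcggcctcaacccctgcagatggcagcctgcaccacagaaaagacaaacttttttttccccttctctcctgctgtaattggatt
Timp2, chr11:118355741-118355940, strand -: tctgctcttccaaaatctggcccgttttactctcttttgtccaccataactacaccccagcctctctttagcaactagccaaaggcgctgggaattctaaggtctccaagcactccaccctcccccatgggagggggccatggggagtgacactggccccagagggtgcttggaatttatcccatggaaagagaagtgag

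Finally, 120 bases centred on the AP-1 site are shown for peaks of both lists in intron 1 of Timp2 and upstream of Timp2, Timp3 and Mmp9 and downstream of Mmp14. The only peak inside Mmp2 is shown with them. The strand is that of the gene, and the AP-1 site is in capitals.
Timp2 intron 1, chr11:118337864-118337983, strand -: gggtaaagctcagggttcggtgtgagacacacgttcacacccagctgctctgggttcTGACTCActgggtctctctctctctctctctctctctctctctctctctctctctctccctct
Timp2 upstream, chr11:118365273-118365392, strand -: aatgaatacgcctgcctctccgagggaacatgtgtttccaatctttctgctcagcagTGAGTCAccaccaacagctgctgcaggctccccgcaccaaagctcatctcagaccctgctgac
Timp3 upstream, chr10:86251063-86251182, strand +: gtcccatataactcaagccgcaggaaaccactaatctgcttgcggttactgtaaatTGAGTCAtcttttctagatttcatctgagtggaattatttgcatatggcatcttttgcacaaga
Mmp9 upstream, chr2:164867801-164867920, strand +: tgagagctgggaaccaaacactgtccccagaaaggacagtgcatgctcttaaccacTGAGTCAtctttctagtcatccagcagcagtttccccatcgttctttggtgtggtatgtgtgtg
Mmp14 downstream, chr14:54492909-54493028, strand +: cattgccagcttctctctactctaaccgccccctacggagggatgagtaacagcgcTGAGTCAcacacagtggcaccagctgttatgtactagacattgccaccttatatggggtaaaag
Mmp2 intron 11, chr8:92849357-92849476, strand +: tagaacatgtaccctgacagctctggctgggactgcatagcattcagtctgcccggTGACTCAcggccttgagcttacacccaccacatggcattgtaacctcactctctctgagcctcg

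WFS1 peaks were distributed unequally over the 8 genes, with 17 around Timp2, 9 around Mmp14, 7 around Mmp9, 5 around Timp3, 2 around Mmp2 and 0 around Mmp3, Mmp10 and Mmp13. Thus 5 of 8 genes had a peak, and over all 21938 protein-coding genes the share was 73.4%. With a peak of both lists required, 4 of 8 genes remained, namely Mmp9, Mmp14, Timp2 and Timp3, beside 47.8% of all protein-coding genes. Only Mmp14 and Timp2 had a peak less than 10 kb from the start site, 2 of 8 genes beside 25.1% of all genes, and for both the peak was also within 1 kb, beside 13.2% of all genes. As counts over a list of 8, these shares were near the background, and the differences were between single genes.

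**Figure D1:**
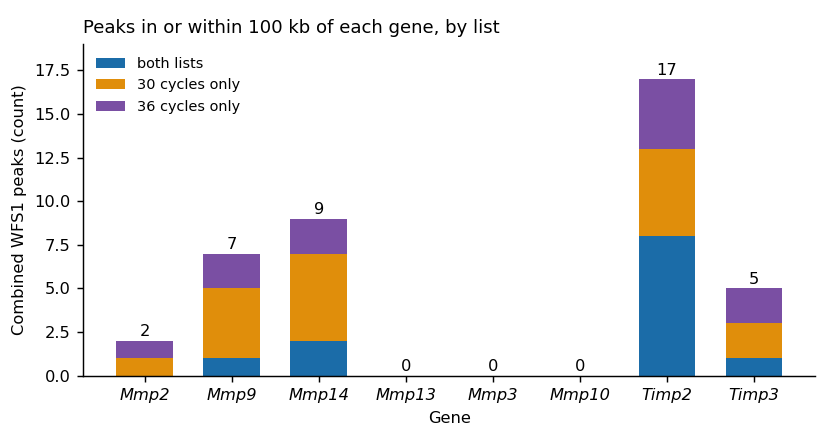
Number of combined WFS1 peaks (y axis, count) in or within 100 kb of each of the 8 genes (x axis), with bar segments for peaks called in both lists, after 30 cycles only and after 36 cycles only. Timp2 has 17 peaks, of which 8 were in both lists, and Mmp13, Mmp3 and Mmp10 have 0.

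Set against all protein-coding genes, whose median was 2 peaks, Timp2 stood at the upper end, since 220 genes (1.0%) had at least as many. For Mmp14 this share was 9.1%, for Mmp9 15.3%, for Timp3 27.2% and for Mmp2 58.7%. The windows differ in length because the genes do. Per megabase of window, the density of peaks was 66.8 around Timp2, 42.1 around Mmp14, 32.5 around Mmp9, 20.1 around Timp3 and 8.84 around Mmp2, and 8.18 over the whole genome. The order of the genes was thus the same per megabase as by count, and Mmp2 was close to the genome's density.

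**Figure D2:**
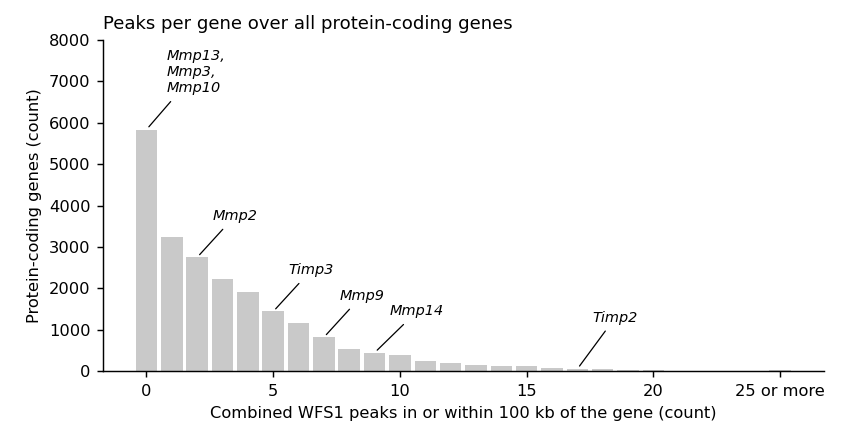
Number of protein-coding genes (y axis, count) by the number of combined WFS1 peaks in or within 100 kb of the gene (x axis), with the 8 genes marked at their own number. The bar at 0 holds 5834 genes, among them Mmp13, Mmp3 and Mmp10, and Timp2 stands in the far right tail at 17.

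Timp2, the inhibitor that also takes part in pro-Mmp2 activation, lies at chr11:118301069-118355740 on the reverse strand (ENSMUSG00000017466). Around its start lay a group of 10 WFS1 peaks. By nearest edges, they ran from 12.9 kb upstream of the start to 33.1 kb downstream of it, in intron 1. Between its outer edges, the group spanned 46.9 kb. The edges of this group were drawn around its own peaks, so that its density is not compared with that of other genes. The 10 peaks covered 15.1% of the stretch, 6 of them were called in both lists, and 7 were at least 600 bp wide. Of the 40 peaks, 9 (22.5%) were at least 600 bp wide, beside 5009 of 22287 combined peaks on nuclear chromosomes. Near Timp2 were 7 of the 9.

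The start site itself lay inside a peak of 905 bp at chr11:118355339-118356243, which was called after 30 cycles only. Of all combined peaks, 8.48% were at least as wide. It held no AP-1 site, and the RefSeq promoter window of Timp2 (250 bases before to 50 after the start) lay inside it and held none either. No 36-cycle peak overlapped it, so that in the 36-cycle list alone the nearest peak to the Timp2 start was at −7.13 kb, upstream of it.

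Intron 1 of Timp2 held 4 peaks, all of which were in both lists. At 17.62 kb from the start was a peak of 650 bp (chr11:118337472-118338121), which held the AP-1 site printed above and also overlapped Cep295nl, a gene that lies in the intron. The other 3 were at 27.5 kb (1155 bp), 30.2 kb (1034 bp) and 33.1 kb (715 bp), and none held an AP-1 site. The 1155-bp peak at chr11:118327038-118328192 was the widest of all 40, and 4.02% of combined peaks were at least as wide. All 4 intron peaks were nearer to the start of Cep295nl than to that of Timp2.

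Upstream of Timp2, peaks of both lists lay 7.09 kb (806 bp) and 9.16 kb (1054 bp) from the start, and the second held an AP-1 site (chr11:118364895-118365948). Another 3 narrow peaks of 254, 252 and 242 bp, called after 30 cycles only, followed at 10.3, 10.8 and 12.9 kb. Farther upstream, the peaks were nearest to the starts of Lgals3bp and C1qtnf1, including a both-list peak of 423 bp at 83.2 kb. Downstream, a peak of 241 bp at chr11:118289820-118290060 was 0.184 kb from the start of Usp36, and a both-list peak of 529 bp with an AP-1 site lay in Cyth1. Of the 17 peaks counted for Timp2, 6 had the Timp2 start as the nearest start of a protein-coding gene.

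Mmp14, the membrane-type protease that activates pro-Mmp2, lies at chr14:54431612-54445364 on the forward strand (ENSMUSG00000000957). Its nearest peak ended 0.076 kb before the start site (chr14:54431193-54431536, 344 bp, after 30 cycles only) and held no AP-1 site. Over all protein-coding genes, 4.97% had a peak at least as near to the start, and 3.36% had one on it as Timp2 did.

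Inside Mmp14 were 3 further peaks. In intron 1, a both-list peak of 497 bp began 1.76 kb from the start (chr14:54433369-54433865), without an AP-1 site, and a 30-cycle peak of 242 bp with an AP-1 site lay at 3.59 kb. The third, of 323 bp, lay at 12.01 kb, beyond the end of the principal transcript and overlapped the last exon of a longer one. These 3 and the peak before the start were the 4 of 9 that had the Mmp14 start as the nearest.

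The widest peak around Mmp14, of 778 bp, was called in both lists, held the AP-1 site printed above and lay 61.3 kb from the start, downstream of the gene (chr14:54492899-54493676), with Rem2 as the nearest start. A 36-cycle peak of 438 bp was next to it. Of the remaining peaks, one of 300 bp was 0.104 kb from the start of Oxa1l and one of 318 bp was 0.029 kb from the start of Prmt5. Peaks at the starts of neighbouring genes therefore entered the count of Mmp14.

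Timp3, the inhibitor that is retained in the matrix, lies at chr10:86300372-86349506 on the forward strand within the larger gene Syn3 (ENSMUSG00000020044). Timp3 had 5 peaks, none closer than 10 kb to the start, and the Timp3 start was the nearest for all 5. Each of the 5 also lay in Syn3. The both-list peak was the farthest upstream, 49.2 kb before the start (chr10:86250626-86251200, 575 bp), and held an AP-1 site. Between it and the start were peaks of 384, 242 and 263 bp at 39.8, 33.4 and 29.8 kb upstream, without an AP-1 site. Within the gene, a 36-cycle peak of 293 bp with an AP-1 site lay in intron 2 at 39.2 kb.

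Mmp9, the gelatinase of type B, lies at chr2:164940780-164955850 on the forward strand (ENSMUSG00000017737) and had 7 peaks, none of them in the gene. The nearest began 29.6 kb upstream, but was 0.593 kb from the start of Zfp335, and in the 30-cycle list alone the nearest was 72.8 kb upstream. That peak, at chr2:164867368-164867997 and 630 bp wide, was the only one of both lists and held an AP-1 site. All 7 had another gene's start as the nearest, namely that of Pltp, Zfp335 or Ncoa5, and a 255-bp peak was 0.056 kb from the start of Pltp. The Mmp9 count of 7 was thus made up of peaks that were closer to neighbours.

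Mmp2, the gelatinase of type A and the substrate of Mmp14 at the cell surface, lies at chr8:92827291-92853420 on the forward strand (ENSMUSG00000031740). It had 2 peaks, neither of them in both lists. One, of 281 bp and with an AP-1 site, was called after 30 cycles in intron 11 (chr8:92849258-92849538), 21.97 kb from the start and 5.80 kb from the start of Lpcat2. The other, of 255 bp, was called after 36 cycles inside Lpcat2. Measured from the nearest of the 4 annotated Mmp2 transcript starts, the intron 11 peak was 5.31 kb away.

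**Figure D3:**
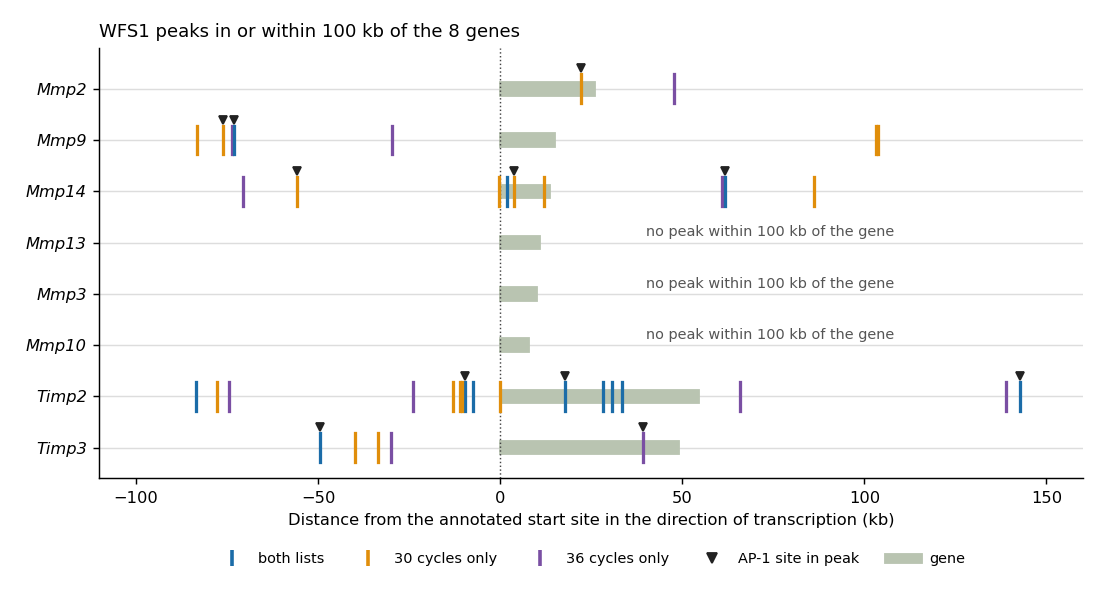
Position of each of the 40 combined WFS1 peaks relative to the annotated start site of its gene (x axis, kb, in the direction of transcription), 1 row per gene, with the gene drawn as a bar, the peak as a tick coloured by list and a triangle over peaks with an AP-1 site. Ticks mark position and not width. Inside Timp2, peaks of both lists lie 17.6 to 33.1 kb from the start. Only Mmp14 and Timp2 have a tick at the start, and the rows of Mmp13, Mmp3 and Mmp10 are empty.

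Over the 5 genes, 15 of the 40 peaks had the member's own start as the nearest and 25 had another gene's. Of those 25, 5 were within 1 kb of the other start, those of Pltp, Zfp335, Oxa1l, Prmt5 and Usp36. By position, 21 of the 40 lay upstream of the gene, 9 downstream and 10 in or over it, of which 8 lay in introns. Which gene a distant peak acts on, if any, cannot be read from positions.

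The collagenase gene Mmp13 and the stromelysin genes Mmp3 and Mmp10 had no peak within 100 kb, and no peak of either list lay anywhere in the chromosome 9 cluster. The cluster runs from chr9:7272514-7699585, a length of 427 kb, with 10 Mmp genes, of which 9 are annotated as protein-coding. Mmp13 (ENSMUSG00000050578, chr9:7272514-7283331) stands at its left end, Mmp3 (ENSMUSG00000043613, chr9:7445822-7455975) and Mmp10 (ENSMUSG00000047562, chr9:7502352-7510240) in the middle, all on the forward strand. From their start sites, the nearest peak was 512 kb away for Mmp13, 339 kb for Mmp3 and 282 kb for Mmp10. A nearest peak at least as far was found for 7.98%, 11.4% and 13.3% of protein-coding genes, and the median distance over all of them was 41.7 kb.

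The stretch without a peak was longer than the cluster and reached 1.12 Mb, from a 195-bp peak of the 36-cycle list ending at position 6665333, 607 kb to the left, to a both-list peak of 637 bp at chr9:7784464-7785100, 84.9 kb to the right. That right peak was the nearest for all 3 members, held no AP-1 site and lay 20.4 kb from the start of Tmem123. Of all 22266 gaps between neighbouring combined peaks, 1.68% were at least as long, and on chromosome 9 this held for 15 of 876 gaps, the longest being 4.1 Mb. The median gap was 25.1 kb over the genome and 34.9 kb on chromosome 9. Such gaps were thus few by number and not particular to the cluster. Long gaps hold more of the genome than their number tells, and their share by length was not computed.

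The cluster held 90 AP-1 sites or 0.211 per kb, beside 0.174 per kb over chromosome 9. Windows of the 5 genes with peaks held from 0.144 to 0.189 per kb. In all, 194 sites lay in the 1119 kb without a peak, a density close to that of chromosome 9. The sequence of this stretch is complete, with 0 unknown bases. Bases marked as repeats made up 47.8% of the cluster and 32.0% of chromosome 9, and the GC content was 40.8% and 42.7%. Over the windows of 100 kb to either side, repeats made up 58.8% around Mmp3, 55.1% around Mmp10 and 41.2% around Mmp13, and from 20.2% to 34.7% around the 5 genes with peaks. Reads in repeats can be lost to the filter on mapping quality, and the part of this in the missing peaks was not tested.

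**Figure D4:**
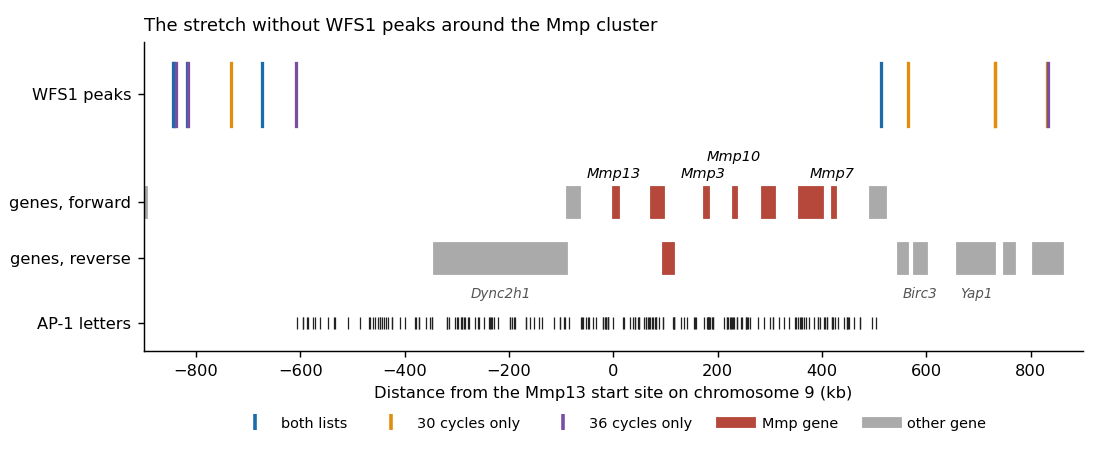
WFS1 peaks, genes on the forward and reverse strand and AP-1 letters along chromosome 9, by distance from the Mmp13 start site (x axis, kb), with AP-1 letters drawn only between the flanking peaks. No peak falls in the 1.12 Mb that hold the 10 Mmp genes and 194 AP-1 sites, a density of sites close to that of chromosome 9.

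Matched promoter windows of the family were searched for AP-1 sites and for overlapping peaks. RefSeq promoter windows were matched for 6 of the 8, namely Mmp3, Mmp10, Mmp13, Mmp14, Timp2 and Timp3, and 3 of the 6 held an AP-1 site, beside 4.65% of 20125 windows of protein-coding genes. Those 3 were the windows of Mmp13, Mmp3 and Mmp10, which a peak did not reach. The 2 windows that a peak overlapped, of Timp2 and Mmp14, held no AP-1 site, and over all windows 6.69% were overlapped by a peak. The window of Timp3 had neither. The other family members had 19 windows from 16 genes, as some genes had a second window. Of the 19, 4 held an AP-1 site, in Mmp12, Mmp1b, Mmp1a and Mmp7, all in the same cluster and all without a peak over them. The second windows of Mmp12 and Mmp7 held no AP-1 site. The Mmp11 window was overlapped by a peak and held no AP-1 site. The remaining 14 windows, among them those of Mmp8, Mmp27 and Mmp20 in the cluster, had neither. No window of the family held both. The share of all windows holding both was not counted, and few family windows overlapped a peak, so nothing is concluded from this.

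Within the peaks, AP-1 sites were about as common near the 8 genes as elsewhere. Of the 40 peaks, 11 held 1 site each, which is 27.5% (95% Wilson interval 16.1 to 42.8, counting error only), and of all combined peaks on nuclear chromosomes 31.2% held a site. In the central 200 bp, the share was 15.0% (7.06 to 29.1) of the 40 and 17.9% of all. Wider peaks have more room for a site, and within width classes the shares were close as well. They were 17.6% of 17 peaks under 300 bp beside 17.4% of all such peaks, 28.6% of 14 from 300 to under 600 bp beside 31.4%, and 44.4% of 9 from 600 bp beside 50.4%.

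By list, 6 of the 12 both-list peaks held an AP-1 site, 4 of the 17 peaks found after 30 cycles only and 1 of the 11 found after 36 cycles only. Over all combined peaks, the shares in these classes were 44.8%, 25.5% and 19.7%. Per kilobase, the 40 peaks held 0.618 sites and all peaks 0.826, whereas the rest of the 1600 kb searched around the 8 genes held 0.177. The 40 peaks covered 17792 bp, a small part of this stretch. Most AP-1 letters near the genes thus lay outside peaks, 279 of 290, although they were denser inside them. In the 11 peaks, the site was a median of 89.5 bp from the centre of the peak, beside 95.5 bp over all peaks with a site.

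Around Timp2, 3 of 17 peaks had an AP-1 site, or 17.6% (6.19 to 41.0), and around the other genes 8 of 23, or 34.8% (18.8 to 55.1). For the E-box letters CAGCTG, a site that myogenic factors such as MyoD can bind, the order was the opposite, with 9 of 17 Timp2 peaks, or 52.9% (31.0 to 73.8), and 3 of 23 others, or 13.0% (4.54 to 32.1). The share of CAGCTG over all 40 was 30.0% and over all combined peaks 32.8%. Per kilobase, CAGCTG was found 1.19 times in the Timp2 peaks, 0.467 times in the others and 0.974 times in all combined peaks. The intervals of Timp2 and the other genes overlap for either site, the peaks near Timp2 were wider, and no test was made, so these values are descriptions of 1 gene's peaks.

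Of the other letters searched on both strands, TGTGGT (RUNX) was in 47.5% of the 40 peaks and 41.6% of all, GGAATG (TEAD) in 35% and 29.4%, and AGGAAG (ETS) in 45.0% and 44.1%. AGGAAG was in 12 of the 17 Timp2 peaks, or 70.6% (46.9 to 86.7), and in 6 of the 23 others, or 26.1% (12.5 to 46.5). The 17 are neighbouring peaks around 1 gene and not replicates, so the interval is no test against all peaks. Wider peaks have more room for these letters too. Per kilobase, AGGAAG was found 1.63 times in the Timp2 peaks, 1.28 times in the others and 1.47 times in all combined peaks. The cyclic AMP response letters TGACGTCA were in 0 of 40 peaks, for which the upper end of the 95% Wilson interval is 8.76%, and in 0.915% of all. For each of these 4 motifs, the share over all combined peaks lay within the interval of the 40 peaks.

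Peaks near the 8 genes were in both lists in 12 of 40 cases, or 30.0% (18.1 to 45.4), beside 35.4% of all combined peaks. Another 17 were found after 30 cycles only and 11 after 36 cycles only, 42.5% and 27.5% beside 45.5% and 19.1% of all. Timp2 held 8 of the 12 both-list peaks, 47.1% of its 17 (26.2 to 69.0), and the other genes held 4 of 23, or 17.4% (6.98 to 37.1). These intervals overlap, and both hold the 35.4% of all combined peaks. When the overlap had to cover at least 50% of both peaks, the share in both lists was 17.5% over the 40 and 24.3% over all combined peaks.

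The median width of the 40 peaks was 320.5 bp, with a range from 195 to 1155 bp, and that of all combined peaks was 376 bp. Both-list peaks had a median of 682.5 bp near the 8 genes and 623 bp over all. Among the 40, 4 were at least 900 bp wide, all near Timp2, and 8.61% of all combined peaks were. Apart from Timp2, the widest were the 778-bp peak of Mmp14, the 630-bp peak of Mmp9 and the 575-bp peak of Timp3, and each of these was called in both lists and held an AP-1 site.

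**Figure D5:**
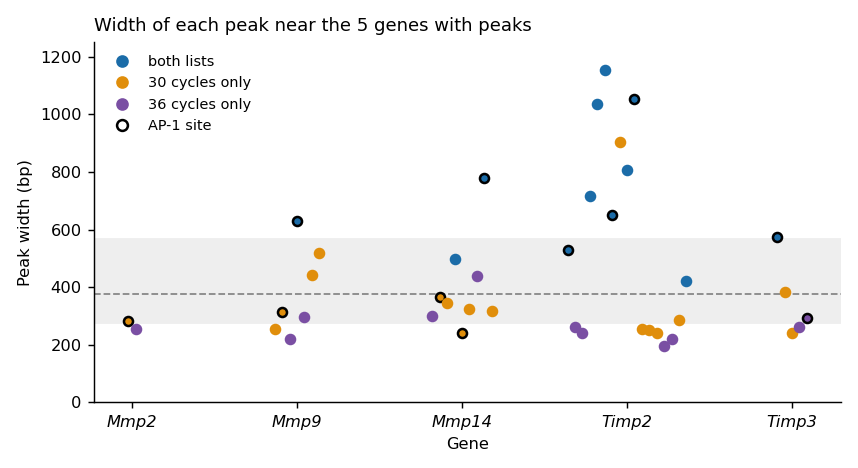
Width of each combined WFS1 peak (y axis, bp) near the 5 genes that had any (x axis), with points coloured by list, ordered by position within a gene and ringed in black where the peak holds an AP-1 site. The dashed line is the median of all combined peaks, 376 bp, and the grey band their quartiles, 276 to 568 bp. The widest points, up to 1155 bp, are those of Timp2, and 2 of the 7 that are at least 600 bp wide there are ringed.

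In the rest of the family, 6 of the 7 genes without a peak lay in the chromosome 9 cluster. Of 19 other MMP and TIMP genes, 12 had a peak in the gene or within 100 kb, beside 73.4% of all protein-coding genes, and 8 had a both-list peak, beside 47.8%. In 5 a peak was at most 10 kb from the start, beside 25.1%, namely in Mmp11, Mmp19, Mmp24, Mmp28 and Timp1. These shares were near the background. The 7 without a peak were Mmp1a, Mmp1b, Mmp8, Mmp12, Mmp20 and Mmp27 of the cluster, and Mmp21 elsewhere, and Mmp7 at the right end of the cluster was reached only by the flanking peak 92.4 kb from its start. Outside the cluster, 11 of 12 had a peak. Timp1, an inhibitor whose gene is induced by growth factors, had a both-list peak of 414 bp with an AP-1 site at −0.532 kb from its start, whereas the start-site peaks of Timp2 and Mmp14 held none.

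Of 16 genes that activate, localize or restrain pericellular proteolysis, 15 had a peak, beside 73.4% of all protein-coding genes, and 14 had a both-list peak, beside 47.8%. Adamts9, a secreted protease of the matrix, had none. A peak was at most 10 kb from the start in 7, beside 25.1%. Plau, which encodes the plasminogen activator urokinase, had one at −0.036 kb, and Plaur, its receptor, had one at −0.197 kb and 17 peaks in all, as many as Timp2. The other 5 were Furin, which cleaves the propeptide of pro-Mmp14, Bsg, an inducer of MMP expression, the shedding protease Adam17, and Adam19 and Adamts5. Within the wider group, the start-site peaks of Timp2 and Mmp14 were therefore not particular to these 2 genes.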

How the data were processed

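Peak lists of 2 WFS1 ChIP libraries of wildtype C2C12 cells were used, and the 6 libraries without a list here were not analysed. For alignment to GRCm38 the authors used NextGenMap. Reads of low mapping quality were then filtered out with samtools, and MACS2 was run on each library by itself, without pooling. The control used in peak calling is not given in the sources used here. The deposited values are positions only, that is chromosome, start and end, with no read count, score or q-value, so the depth is unknown, and peaks that just missed the authors' threshold cannot be seen. More cycles of sonication shear DNA further, which can change the width and number of peaks.

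Starts were converted from 0-based to 1-based positions. Lists were joined as with bedtools merge, with which the join was checked to give identical regions, and a peak of both lists overlapped peaks of each by at least 1 bp. Gene models were those of GENCODE mouse release 21 (Ensembl 96). The 5′ end of a gene was its start site, and distances run to the nearest edge of the peak. Introns are those of the principal transcript. Promoter sequences are from RefSeq (GRCm38.p6), with 250 bases before and 50 after the start. Entries were matched for 6 of 8 members, and not for Mmp2 and Mmp9. Letters were searched on both strands in the GRCm38 genome. None of the other motifs contains the AP-1 site or another motif.

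No test was made, because each condition had 1 library. Shares have 95% Wilson intervals over peaks, which are not independent replicates, and intervals cover counting error only. The members and lists were chosen with earlier results of these data known, and the lists of other genes were written from knowledge of their function. From these lists, 1 gene is not reported here and was left out of the counts. Named are the 8 genes and, of their peaks, those of both lists, nearest to a start, widest per gene or with an AP-1 site, the genes nearest to them, and those of the other lists with a peak up to 10 kb from the start or with none up to 100 kb away. Further peaks were named after their values were seen. Alternatives were each list alone, peaks of both lists only, wider peaks only, other distances, joining over 500 bp, a stricter overlap, other definitions of the site and of start sites, and other background genes. The join, the counting near genes and the search for letters were tested on simulated data. Versions were python 3.11.15, pandas 2.3.3, scipy 1.17.1, pysam 0.24.0, bedtools 2.31.1, samtools 1.23.1 and matplotlib 3.10.9.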

Additional observations from a re-analysis of the deposited data

How the results depend on the processing

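Under the alternatives, 64 values stayed close to those reported (counts, widths and distances within 1.5 times or 0.5 kb, shares within their interval), 18 moved further and 1 changed sign. Some of the 64 could not have moved. Without a combined peak in the cluster, neither list alone could hold one there, and the long distances of Mmp3, Mmp10 and Mmp13 hardly depend on the peak centre. The number of peaks near the 8 genes was 23 in the 36-cycle list alone, 12 with peaks of both lists only, 17 with peaks of at least the median width, 26 within 50 kb and 63 within 200 kb, in place of 40. A peak was found for 4 of 8 genes with peaks of both lists only and with wide peaks only, and for 5 of 8 under the other alternatives. For combined peaks within 100 kb, the background share was 73.4% of protein-coding genes and 63.0% of all annotated genes. With peaks of both lists only, it was 47.8% of protein-coding genes. No background share was computed for the other alternatives. The share with an AP-1 site was 50% among peaks of both lists and 15.0% both in the central 200 bp and for the site of 8 bases. Over all combined peaks, it was 44.8% among those of both lists and 17.9% in the central 200 bp. For the site of 8 bases it was not counted over all peaks. The median width was 682.5 bp among peaks of both lists and 630 bp among wide peaks, and the share in both lists was 70.6% among wide peaks and 17.5% with a reciprocal overlap of 50%. Over all combined peaks, the share with that overlap was 24.3%, and the share in both lists among wide peaks was not counted. The cluster with 100 kb added at both ends held 1 peak, the right flanking one. The nearest peak to the start of Mmp14 was at 1.91 kb, in place of just before the start, in the 36-cycle list alone, where that of Mmp2 was at 47.65 kb and that of Timp2 at −7.13 kb. For Mmp9 it was at −72.78 kb in the 30-cycle list alone, and for Mmp2 at 5.31 kb from the nearest transcript start. No paired analysis was possible because there was 1 library for 30 and 1 for 36 cycles. A stricter threshold of the peak caller was not run, as the lists hold no score. With the depth unknown, a gene without a peak cannot be told apart from one with WFS1 signal under the threshold.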
